A study of Mus musculus with 12 samples.

Results

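A set of 10 genes that remove calcium from the muscle fiber, buffer it in the cytosol or read it was followed in tibialis anterior muscle with and without Smyd1, which encodes a lysine methyltransferase of striated muscle. They were chosen by symbol as the sodium-calcium exchangers Slc8a1 and Slc8a3, the plasma membrane calcium pumps Atp2b1, Atp2b2, Atp2b3 and Atp2b4, the calcium buffer Pvalb, and the calmodulin-dependent kinase genes Camk2a, Camk2b and Camk2g. All 10 were among the 23923 genes of every library, and 9 of them were among the 12695 that reached 0.1 FPKM (fragments scaled by exon length and by library size) in at least 6 libraries. Atp2b2 did not. RNA was measured in 1 library from each of 12 mice aged 6 weeks, on a mixed C57BL6/J;129S1/SvImJ strain. By the study's account, experiments after its histology in both sexes used male tissue only. The 6 controls were Myf6 cre/+ and Smyd1 flox/+, and the 6 conditional knockouts (CKO) were Myf6 cre/+ and Smyd1 flox/-. Cre was therefore present in both groups, and each control kept 1 intact Smyd1 allele. According to the study's methods, the crosses also brought in a Rosa26 YFP reporter, and Cre was made from the Myf6 locus itself, so that recombination was aimed at differentiated myofibers. Other cells of the muscle keep the floxed allele and were part of the same RNA.

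After a contraction most calcium is pumped back into the sarcoplasmic reticulum, and a smaller part leaves the fiber through sodium-calcium exchangers and plasma membrane pumps. Parvalbumin, a soluble protein of fast fibers, takes up calcium and magnesium in the cytosol and speeds relaxation. Calmodulin-dependent kinase II (CaMKII) is built from the products of several Camk2 genes and is switched on by calcium-bound calmodulin, which also activates the plasma membrane pumps.

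Slc8a3 was the gene of this set whose RNA changed most clearly, and Pvalb the one with by far the most RNA, so their promoters are shown. The sequences are the 250 bases before the annotated start in RefSeq (GRCm38.p6, both on the minus strand, 5′ to 3′). Promoters were found there for 7 of the 10 genes, with no entry for Atp2b3, Camk2a and Camk2g, and the more upstream of 2 Pvalb starts is printed. Capitals mark matches on either strand to the E-box CANNTG, the core TGACG of the cyclic AMP response element (CRE), the MCAT element CATTCC, the TATA box TATAAA, and the MEF2 and CArG box motifs, a set of letters chosen after the sequences had been seen.
Slc8a3, chr12:81333181-81333430: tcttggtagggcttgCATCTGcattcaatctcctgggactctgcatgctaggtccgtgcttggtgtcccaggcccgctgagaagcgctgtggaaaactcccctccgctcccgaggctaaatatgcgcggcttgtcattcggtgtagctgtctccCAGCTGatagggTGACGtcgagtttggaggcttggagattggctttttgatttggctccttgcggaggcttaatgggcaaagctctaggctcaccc
Pvalb, chr15:78206401-78206650: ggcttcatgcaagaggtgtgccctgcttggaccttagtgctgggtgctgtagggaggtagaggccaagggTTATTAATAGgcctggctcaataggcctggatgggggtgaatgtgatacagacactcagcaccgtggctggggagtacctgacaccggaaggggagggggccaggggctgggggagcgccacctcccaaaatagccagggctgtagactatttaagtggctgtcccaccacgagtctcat
The Slc8a3 stretch held E-boxes at 235 and 96 bases before the start and a CRE core at 84 bases. The Pvalb stretch held 1 MEF2 match, at 180 bases. Among promoters of the same length for 27025 genes, 66.0% held an E-box, 17.9% a CRE core and 3.01% a MEF2 match. These matches describe the letters only, since binding was not measured here.

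The library labels could not be checked from Smyd1 itself, because the values sum all exons of the gene. Smyd1 was 32.9, 34.9 and 47.1 FPKM (lowest, median, highest) in controls and 27.8, 33.5 and 39.9 FPKM in CKO, and the groups overlapped (log2 fold change -0.13, limma adjusted p 0.545 and, after the scaling described next, -0.28 and 0.110). Sequencing depth relative to the shallowest control was 1 to 1.55 in controls and 0.979 to 1.78 in CKO. Across all tested genes the median log2 fold change was 0.18, with 77.9% of genes above 0. After median-ratio scaling over the 6354 genes above 1 FPKM in all 12 libraries it was 0.040, so differences are given under both scalings where they part. Fast-fiber markers were abundant in all 12 libraries with sums of 18473 to 30664 FPKM. The summed slow-fiber markers ran from 18.6 to 51.9 FPKM in controls and stood at 142, 85.6 and 292 FPKM in CKO 1, 3 and 6, against 26.6 to 33.2 FPKM in CKO 2, 4 and 5. Of the 7 slow-fiber genes, 6 were higher in CKO at an unadjusted limma p under 0.05 under both scalings, and 1 was lower after scaling. The shares of all tested genes that were higher were 18.1% as deposited and 8.33% after scaling. As deposited, 0 of the 7 passed upward after adjustment. Myh7, 1 of the 7, was 16.5, 7.81 and 37.5 FPKM in CKO 1, 3 and 6. It was 0.438, 2.51 and 0.419 FPKM in CKO 2, 4 and 5, against at most 2.25 FPKM in controls. Myh3, the embryonic myosin heavy chain, was 16.3, 11.97 and 25.7 FPKM in CKO 1, 3 and 6 and at most 2.76 FPKM in the other 9 libraries. The summed embryonic and neonatal markers, of which Myh3 is 1 of 5, did not set CKO 1, 3 and 6 apart. Those sums were 137, 137 and 175 FPKM there, inside the control range of 122 to 262 FPKM. Each main difference is therefore given also without those 3 CKO libraries. In bulk muscle, fewer cells of a type and less RNA per cell cannot be told apart.

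Expression of the sodium-calcium exchanger gene Slc8a3 was higher in every CKO mouse than in any control, whereas its paralog Slc8a1 overlapped between groups. Slc8a3 encodes NCX3, the exchanger known from skeletal muscle and brain. Its level in the 6 controls, in mouse order, was 7.64, 6.62, 7.75, 7.94, 7.78 and 7.66 FPKM. In the 6 CKO mice it was 17.9, 10.03, 14.3, 13.8, 9.97 and 12.3 FPKM. The highest control and the lowest CKO mouse were thus 7.94 and 9.97 FPKM. The controls lay within a narrow band, with a coefficient of variation of 6.29%, and the CKO mice were more spread, at 22.9%. Means were 7.56 ± 0.476 and 13.045 ± 2.99 FPKM (SD, 6 mice each), a 1.68-fold difference (95% interval 1.38 to 2.05). The log2 fold change was 0.75 (SE 0.13), with a limma adjusted p of 0.00931 by Benjamini-Hochberg over the 12695 genes. The exact permutation test over the 924 assignments of mice to groups gave p = 0.0021645, the smallest it can give. In the same fit 2.02% of all tested genes passed the adjusted threshold upward and 0.268% downward. Of all tested genes, 2.23% had every CKO mouse above every control.

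The Slc8a3 difference held under both scalings, but its adjusted call was lost when 3 CKO libraries were left out. After median-ratio scaling the controls ran from 6.86 to 8.62 FPKM and the CKO mice from 9.09 to 15.98 FPKM, and 0.993% of all tested genes were apart in this direction. The log2 fold change was then 0.60 (SE 0.13, limma adjusted p 0.0285). By that scaling 0.851% of tested genes passed upward. Without CKO 1, 3 and 6 the log2 fold change as deposited was 0.56, with a limma p of 0.00165 and an adjusted p of 0.272. That fit held 3 CKO mice and 6 controls, and 4 genes of 12176 passed upward in it. The exact permutation p was then 0.0119 over 84 assignments, the smallest it can give. Loss of those 3 libraries and the smaller number of mice cannot be told apart here. Slc8a3 was 17.9, 14.3 and 12.3 FPKM in CKO 1, 3 and 6, beside slow-fiber sums of 142, 85.6 and 292 FPKM. It was 10.03, 13.8 and 9.97 FPKM in CKO 2, 4 and 5, beside sums of 26.6, 33.2 and 32.8 FPKM, which lay inside the control range. Of the 3 libraries with high sums 2 held the highest Slc8a3 levels, and of the 3 with low sums 2 held the lowest of the CKO levels. The part of fiber type in the Slc8a3 difference was not tested. Nerve and Schwann cell markers, another possible source of exchanger RNA, summed to 11.4 to 15.9 FPKM in controls and 13.5 to 20.9 FPKM in CKO (exact permutation p 0.0216 on the log2 sums as deposited). Of the 6 of them that were tested, 3 were higher at an unadjusted p under 0.05 and none passed after adjustment, and after median-ratio scaling 0 were called at the unadjusted threshold. Among all tested genes, 18.1% were higher at that threshold as deposited and 8.33% after scaling. The neuronal markers Nefl, Nefm and Snap25 were at 0 in at least 6 of 12 libraries. The part of these cells in the Slc8a3 difference was not tested.

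Slc8a1 encodes NCX1, the exchanger best known from heart muscle. It was 0.735, 0.850 and 1.48 FPKM (lowest, median, highest) in controls and 0.677, 1.03 and 1.63 FPKM in CKO. The CKO mice straddled the controls, with a log2 fold change of 0.15 (95% interval -0.30 to 0.61, adjusted p 0.710 by limma). Its direction turned to -0.10 without CKO 1, 3 and 6. Slc8a1 and Slc8a3 can be set side by side because FPKM is per length of transcript. Slc8a3 made up 88.7% ± 2.72 of the summed Slc8a FPKM in controls and 92.1% ± 2.57 in CKO (SD, 6 mice each). Slc8a1 made up 11.1% ± 2.79 and 7.77% ± 2.59, and the remaining gene, Slc8a2, at most 0.595% in any mouse. The shares overlapped between groups, with 4 of 6 CKO mice above every control for Slc8a3 (exact permutation p 0.0541, adjusted p 0.161 over the 11 shares tested in the Slc8a, Atp2b and Camk2 families). The summed exchanger level was 8.53 ± 0.571 FPKM in controls and 14.1 ± 3.10 FPKM in CKO. Most of that difference was Slc8a3 itself.

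**Figure D1:**
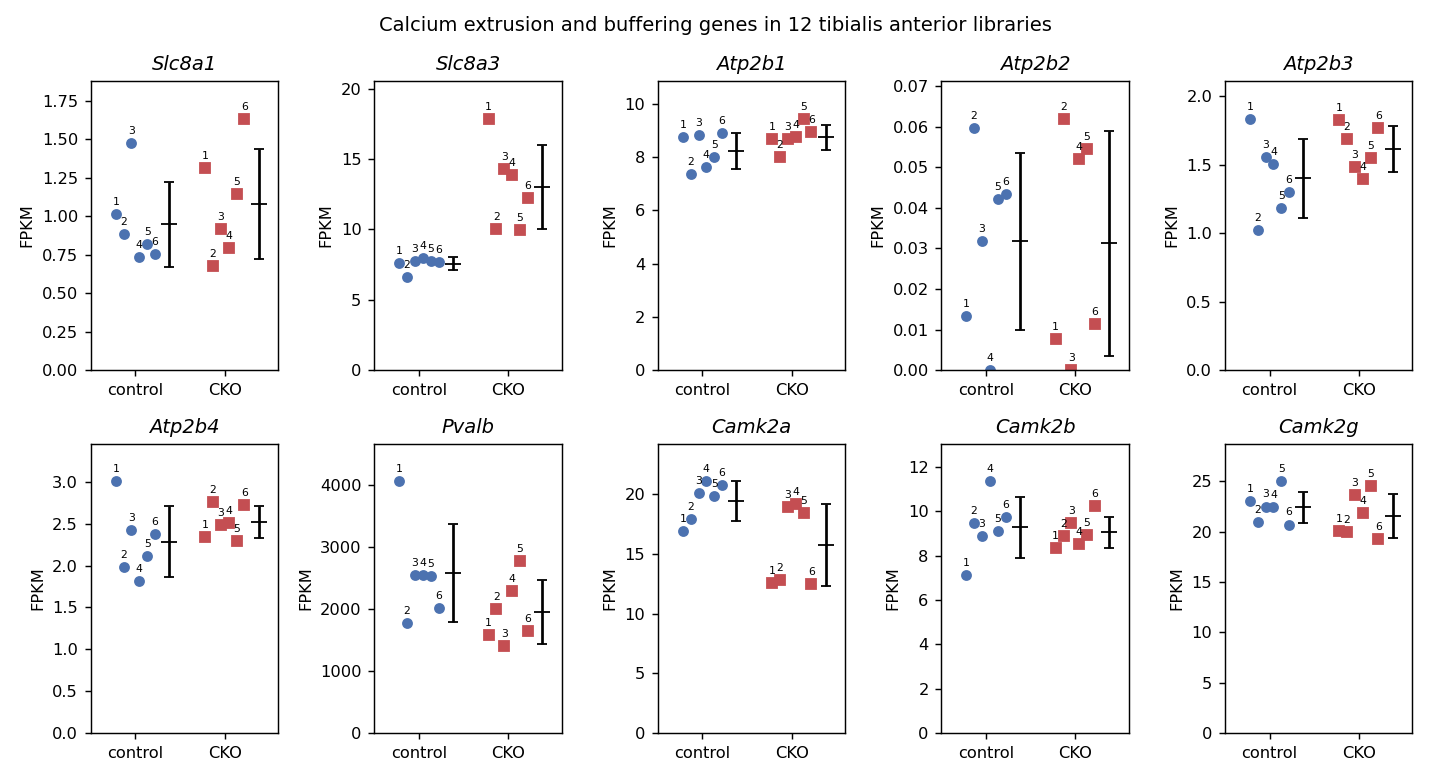
FPKM of each of the 10 genes (y axis, linear from 0, a separate scale per panel) in 6 control mice (circles) and 6 CKO mice (squares), numbered by mouse, with mean and SD beside each group. Slc8a3 is the one panel in which the groups do not overlap, with controls up to 7.94 FPKM and CKO mice from 9.97 FPKM.

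None of the 4 plasma membrane calcium pump genes passed the test in either direction. Atp2b1, which encodes the widely expressed pump PMCA1, was the main one, with 7.34, 8.35 and 8.90 FPKM (lowest, median, highest) in controls and 7.99, 8.72 and 9.43 FPKM in CKO. The groups overlapped, and the log2 fold change of 0.088 had a 95% interval of -0.098 to 0.27 (limma adjusted p 0.588), which as a fold is 0.934 to 1.21. After median-ratio scaling the sign turned, to -0.063. Atp2b4, the gene of PMCA4, was 1.81, 2.25 and 3.01 FPKM in controls and 2.30, 2.50 and 2.76 FPKM in CKO. All 6 CKO mice lay above the control median but none above the highest control, with a log2 fold change of 0.15 (95% interval -0.12 to 0.42, limma adjusted p 0.517). Atp2b3, a pump gene otherwise known mostly from brain, was 1.03, 1.40 and 1.84 FPKM in controls and 1.40, 1.62 and 1.83 FPKM in CKO. The CKO range lay inside the control range, and the log2 fold change was 0.21 (95% interval -0.097 to 0.52, limma adjusted p 0.419). After scaling, the values were 0.070 for Atp2b3 and 0.0037 for Atp2b4. Atp2b2, known from hair cells and neurons, was at most 0.0619 FPKM in any mouse and was listed at 0 in control 4 and CKO 3, so it was not tested.

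The shares of the pump genes overlapped between groups. Atp2b1 made up 69.0% ± 2.44 of the summed Atp2b FPKM in controls and 67.7% ± 2.32 in CKO, a difference of -1.35 percentage points (exact permutation p 0.351). Atp2b4 made up 19.0% ± 1.78 and 19.5% ± 1.67, and Atp2b3 11.7% ± 1.70 and 12.5% ± 1.26. Summed over the family, the pump genes reached 11.95 ± 1.24 FPKM in controls and 12.9 ± 0.382 FPKM in CKO. Set against the main pump gene, Slc8a3 changed its place. Atp2b1 exceeded Slc8a3 in 5 of 6 controls and in 0 of 6 CKO mice. The ratio of Slc8a3 to Atp2b1 within a mouse, which no scaling between libraries can alter, was 0.861 to 1.04 in controls and 1.06 to 2.06 in CKO. That pair was chosen after the values had been seen and was not tested.

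**Figure D2:**
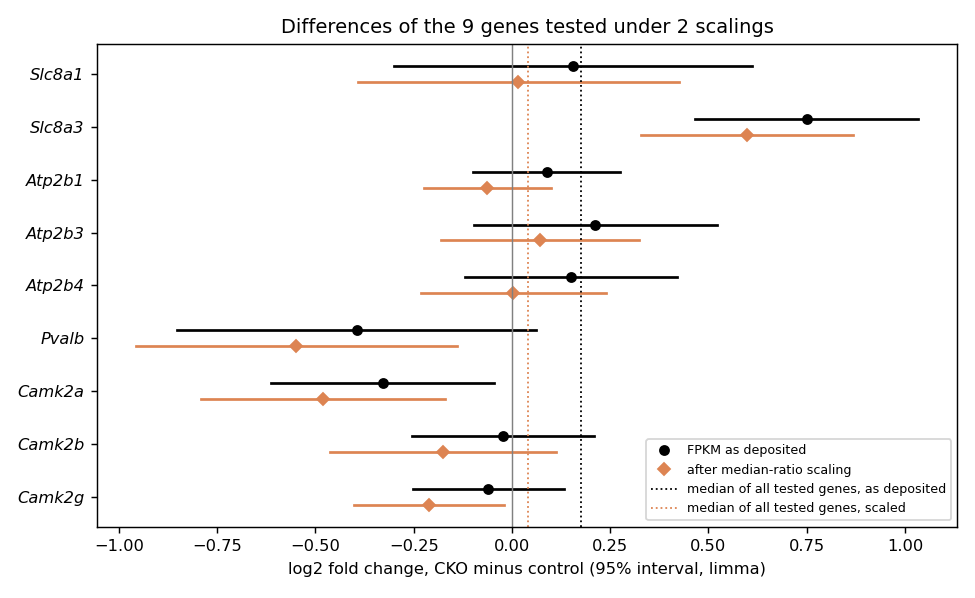
Log2 fold change, CKO minus control, of the 9 genes tested (x axis), with 95% limma intervals, for FPKM as deposited (circles) and after median-ratio scaling (diamonds); dotted lines give the median of all tested genes under each. Slc8a3 lies to the right of 0 under both, at 0.75 and 0.60, and the Camk2a interval lies to the left of 0 under both, around -0.33 and -0.48. Pvalb and Camk2g have intervals that clear 0 only after scaling.

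Parvalbumin RNA was lower in CKO on average, but the difference did not pass the adjusted test under either scaling. Pvalb stood at rank 9 among the 23923 genes by control mean. It measured 4055, 1779, 2551, 2541, 2534 and 2009 FPKM in the 6 controls and 1576, 1993, 1405, 2285, 2769.8 and 1646 FPKM in the 6 CKO mice. As deposited, CKO 1, 3 and 6 lay below every control, and the other 3 lay within the control range. After median-ratio scaling CKO 2 was below every control too, at 2001 FPKM against a lowest control of 2069 FPKM. Means were 2578 ± 793 and 1946 ± 513 FPKM (SD, 6 mice each). The log2 fold change was -0.40 (95% interval -0.85 to 0.061), with a limma p of 0.0849 and an adjusted p of 0.314. After scaling it was -0.55 (SE 0.19), with a limma p of 0.0118 and an adjusted p of 0.194. Control 1 was the highest of the 12 and also held the highest fibroblast and tendon marker sum, 540 FPKM against at most 314 FPKM elsewhere. The same library held the highest fast-fiber marker sum, 30664 FPKM, and the highest FPKM summed over all genes, 156610. Its macrophage, smooth muscle and erythroid marker sums, 33.2, 26.5 and 49.3 FPKM, were the highest too. The part of these in its Pvalb level was not tested. As deposited, the CKO mice below the controls were the same 3 that stood apart in slow-fiber markers. Without those 3 the log2 fold change was -0.097 as deposited and -0.22 after scaling. CKO 2, below the controls only after scaling, had a slow-fiber sum of 26.6 FPKM, inside the control range. Parvalbumin is a fast-fiber protein, and the part of fiber type in its level was not tested.

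Among the CaMKII genes, Camk2a was lower in CKO at the unadjusted threshold and Camk2b and Camk2g were not. Camk2a, whose product is the alpha subunit, was 16.9, 17.9, 20.1, 21.1, 19.9 and 20.8 FPKM in the 6 controls. In the 6 CKO mice it was 12.5, 12.8, 18.9, 19.2, 18.4 and 12.5 FPKM. The CKO mice fell into a low set (CKO 1, 2 and 6, below every control) and a set within the control range (CKO 3, 4 and 5), a split that differs from the one by slow-fiber markers. Means were 19.5 ± 1.67 and 15.7 ± 3.42 FPKM (SD, 6 mice each), and the log2 fold change was -0.33 (SE 0.13, limma p 0.0256). The adjusted p was 0.188, and the exact permutation p 0.0541. In that fit 1.76% of all tested genes were lower and 18.1% higher at an unadjusted p under 0.05. After scaling the log2 fold change of Camk2a was -0.48 (limma p 0.00496, adjusted p 0.132). Without CKO 1, 3 and 6 it was -0.23 as deposited and -0.35 after scaling.

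Camk2g, the gene of the gamma subunit and the most abundant Camk2 gene in this muscle, was 20.7, 22.5 and 25.0 FPKM (lowest, median, highest) in controls and 19.3, 21.0 and 24.5 FPKM in CKO. Its log2 fold change of -0.060 had a 95% interval of -0.25 to 0.13 (limma adjusted p 0.732), and after scaling it was -0.21, with a limma p of 0.0315 and an adjusted p of 0.293. Camk2b, the gene of the beta subunit, was 7.11, 9.29 and 11.3 FPKM in controls and 8.33, 8.89 and 10.3 FPKM in CKO. The CKO mice lay inside the control range, with a log2 fold change of -0.024 (95% interval -0.26 to 0.21, limma adjusted p 0.923), and of -0.18 after scaling.

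The fourth gene of the family, Camk2d (delta subunit), is needed to read their proportions. It was 4.77, 5.89 and 7.30 FPKM in controls and 6.72, 9.66 and 14.0 FPKM in CKO, and 5 of 6 CKO mice exceeded every control. Its log2 fold change was 0.70 (SE 0.17, limma adjusted p 0.0493), which scaling moved to 0.54 with an adjusted p of 0.0919. Camk2a held 34.0% ± 1.73 of the summed Camk2 FPKM in controls and 27.8% ± 4.53 in CKO, a difference of -6.25 percentage points, with 5 of 6 CKO mice below every control (exact permutation p 0.0108, adjusted p 0.0595 over 11 shares). Camk2d held 10.4% ± 1.74 in controls and 17.7% ± 5.21 in CKO, a difference of 7.29 percentage points, with 5 of 6 CKO mice above every control (exact permutation p 0.00433, adjusted p 0.0476 over 11 shares). Camk2b was at 16.2% in both groups, and Camk2g was at 39.3% ± 2.57 and 38.3% ± 2.40. These shares rest on the same FPKM as the tests of single genes and are no separate evidence. Without CKO 1, 3 and 6 the Camk2a difference was -3.79 points (adjusted p 0.295, exact permutation) and the Camk2d difference 3.17 points with the same adjusted p. With 3 CKO mice that test has 84 assignments and cannot go below 0.0119 before adjustment. A lost call there cannot be told from the smaller number of mice. The summed level of the 4 genes was 57.1 ± 2.88 FPKM in controls and 56.3 ± 4.94 FPKM in CKO.

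**Figure D3:**
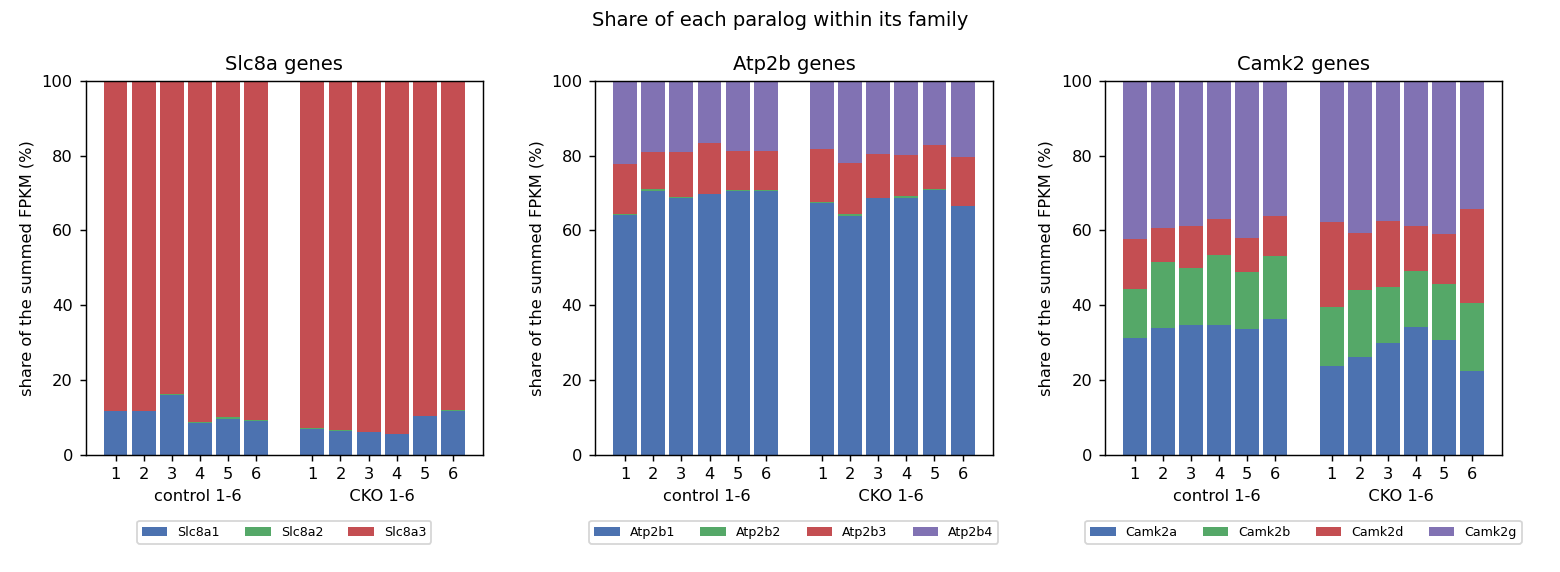
Share of each paralog in the summed FPKM of its family (y axis, percent) in each control and CKO mouse, as stacked bars for the Slc8a, Atp2b and Camk2 genes. The Camk2d segment spans 8.92% to 13.4% in controls and 11.9% to 25.0% in CKO, and the Camk2a segment 31.1% to 36.3% and 22.3% to 34.1%.

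By level in controls the 10 genes ran from Pvalb through Camk2g, Camk2a, Camk2b, Atp2b1, Slc8a3, Atp2b4, Atp2b3 and Slc8a1 to Atp2b2. Pvalb, at 2578 FPKM, stood far above Camk2g, at 22.4 FPKM. The control ranges overlapped between Camk2g and Camk2a, between Camk2b and Atp2b1, between Atp2b1 and Slc8a3, between Atp2b4 and Atp2b3, and between Atp2b3 and Slc8a1. The order of Atp2b1 and Slc8a3 was the one reversed in all 6 CKO mice. Of the 9 genes tested, 1 passed the adjusted threshold upward and 0 downward, and at an unadjusted p under 0.05 the numbers were 1 and 1. The shares of all tested genes were 2.02% and 0.268% adjusted, and 18.1% and 1.76% unadjusted. The median log2 fold change of the 9 genes was 0.088, below the 0.18 of all tested genes, and 5 of 9 were above 0. After scaling the median was -0.063 against 0.040, and the unadjusted calls were 1 upward (Slc8a3) and 3 downward (Pvalb, Camk2a and Camk2g), where 8.33% and 5.88% of all genes were called. With 9 genes these counts describe the set and are not a test of it.

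In the other genes of the pathway, called by the same limma fit, most were not called. At an unadjusted p under 0.05 as deposited, 18.1% of all tested genes were higher and 1.76% lower. Of 9 tested genes for sodium and calcium exchange, 1 was higher at an unadjusted p under 0.05 and 0 lower. This was Fxyd1, phospholemman, a regulator of the sodium pump and of sodium-calcium exchange, at 81.3 ± 17.6 and 97.2 ± 9.94 FPKM (log2 fold change 0.28, adjusted p 0.240). The list had a median of 0.12. Among the pump partners and calmodulins, Nptn, a PMCA subunit, was the 1 gene higher at the unadjusted threshold (log2 fold change 0.37, adjusted p 0.0892). Bsg, basigin, the other PMCA subunit of that list, had a log2 fold change of -0.22 (adjusted p 0.263) and, after scaling, of -0.37 (adjusted p 0.0383). The list median was -0.092.

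None of 6 other calcium buffers tested was called at an unadjusted p under 0.05, with a median of 0.11. Of 9 tested calmodulin kinases and their regulators, Camk2d and Ppm1f were higher at that threshold and 0 were lower. Upward it was passed by 18.1% of all tested genes. Ppm1f, a phosphatase that acts on CaMKII, had a log2 fold change of 0.35 (adjusted p 0.168). The list median was 0.35. Of 7 genes for mitochondrial calcium uptake, Micu2, a gatekeeper of the uniporter, rose by 0.55 on the log2 scale (adjusted p 0.0441), and Smdt1, a uniporter subunit, differed by 0.51 (adjusted p 0.0669). Scaling took the Micu2 adjusted p to 0.0620. Of 5 tested reuptake genes, Sln, sarcolipin, an inhibitor of the reticulum calcium pump, rose from 0.328, 0.678 and 5.69 FPKM in controls to 1.81, 16.035 and 59.9 FPKM in CKO (adjusted p 0.0173). Atp2a2, the slow-fiber calcium pump, was 5.32 ± 0.914 and 10.9 ± 6.12 FPKM (log2 fold change 0.87, adjusted p 0.109). Atp2a2 is itself one of the slow-fiber markers. Without CKO 1, 3 and 6 the log2 fold changes of Camk2d, Micu2 and Sln were 0.33, 0.41 and 2.49, and none passed the adjusted threshold. Across all 42 tested genes of the lists, 3 passed the adjusted threshold upward and 0 downward, against 2.02% and 0.268% of all genes.

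**Figure D4:**
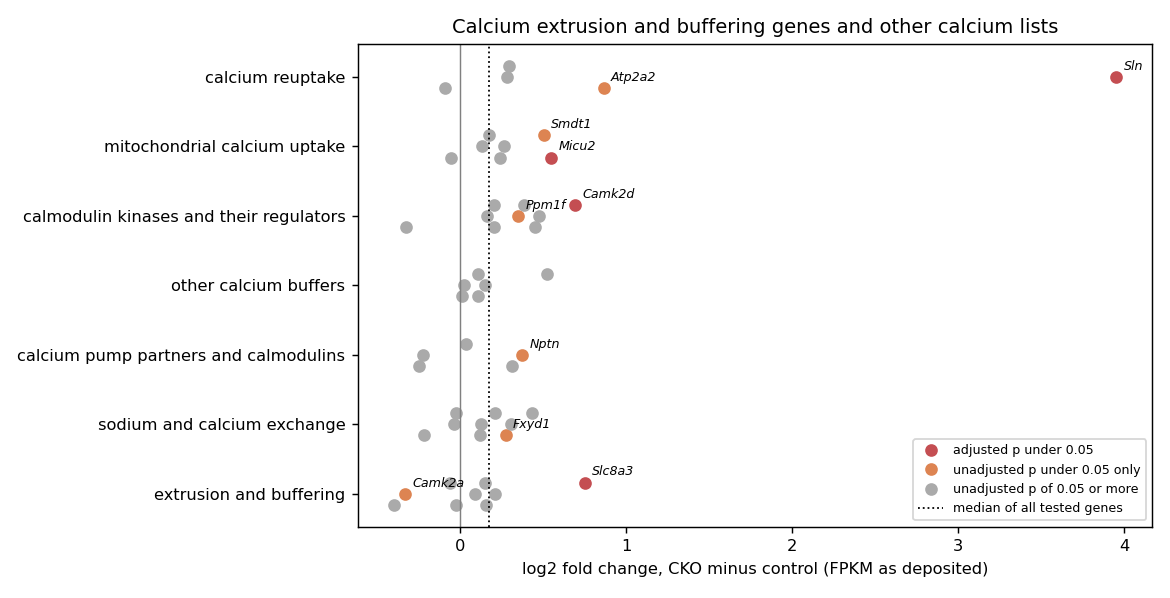
Log2 fold change, CKO minus control, of the tested genes (x axis) for the calcium extrusion and buffering genes and the 6 other lists; red points have an adjusted p under 0.05, orange points an unadjusted p under 0.05 only, and the dotted line is the median of all tested genes. The red points are Slc8a3, Camk2d, Micu2 and Sln, and Sln lies farthest to the right, at 3.95.

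The profiles of the 3 members with the smallest p were compared with those of 7969 genes, over the 12 libraries, after scaling and removal of each group's mean. These correlations are descriptions, and the libraries they share also share depth and composition. Slc8a3 was most like Zbtb38, a zinc finger gene (Pearson r = 0.919), followed by Sel1l and Uggt1, both of protein quality control in the endoplasmic reticulum (0.876 each). Camk2a was most like Ybx3 (0.937), followed by Ybx1 (0.935), both of nucleic acid binding proteins, and Alkbh5, an RNA demethylase (0.932). Pvalb was most like Thoc7 (0.968), of an RNA export complex, followed by the fast troponin genes Tnnc2 (0.933) and Tnnt3 (0.917).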

How the data were processed

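Ribosomal RNA was depleted from total RNA of tibialis anterior, and 1 library per mouse was sequenced. The authors aligned reads with TopHat2 2.0.10 to mm9, discarded multi-mapped reads and deposited 1 FPKM value per gene and library from Cufflinks 2.1.1, so reads shared by paralogs are uncertain. Raw counts were not used here, and depth is known only relative to control 1. Of 23950 rows, 27 whose symbol was a date were left out. Genes with at least 0.1 FPKM in 6 of 12 libraries (12695) were tested on log2(FPKM + 0.1), which understates changes of low genes, with limma 3.58.1 in R 4.3.3 (intensity trend, no covariate, two-sided, Benjamini-Hochberg over all tested genes). Exact permutation tests over mice, two-sided, were run with numpy 2.4.6. The script was tested on simulated data. The study's own test on counts was not used. The gene set and the lists were chosen with earlier results of these data known. Named are all 10 genes, Camk2d, Slc8a2, Smyd1, the list genes with an unadjusted p under 0.05 and the 3 genes most like each of 3 members. Bsg was named after its values were seen. Alternatives covered pseudocount, filter, scaling, trend, sample weights, replicate block and each library left out; leaving out CKO 1, 3 and 6 was added after seeing the data. Labels do not say whether mice shared litters. The result of 1 gene of the lists is not reported here.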

Additional observations from a re-analysis of the deposited data

Results flagged for a closer look

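In 44 groups of 6 mice checked for a single distant sample, 3 showed one, and chance gives about 1 in 20. Slc8a3 in controls had control 2 at 6.62 FPKM below the next value of 7.64 FPKM, a gap that took 0.769 of the group's range. Pvalb in controls had control 1 at 4055 FPKM above the next value of 2551 FPKM, a gap of 0.661 of the range. The Atp2b1 share in controls had control 1 at 64.3% below the next value of 68.8%, a gap of 0.718 of the range. Leaving out each mouse in turn kept the Pvalb log2 fold change between -0.51 and -0.25 and that of Slc8a3 between 0.65 and 0.82.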

How the results depend on the processing

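Over all 23 alternatives Slc8a3 stayed higher in CKO, and its adjusted call was kept in 20. Leaving out each mouse gave adjusted p of 0.00394 to 0.0297 by limma. It was lost with median-ratio scaling plus replicate block (adjusted p 0.0699) and without CKO 1, 3 and 6, before and after scaling, so the members passing upward were 0 in those 3; the cause was not tested. The members passing downward unadjusted were 3 after scaling, with or without the block, 2 with sample weights, 0 without CKO 1, 3 and 6, and 0 to 2 with each mouse left out.

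Counts over all genes passing upward were 170 with no filter, 108 after median-ratio scaling, 101 after quantile normalization, 103 with scaling and block, 1400 with sample weights, and 4 without CKO 1, 3 and 6, also after scaling. Downward they were 70, 68 and 70 after median-ratio scaling, quantile normalization and scaling with block, 115 with weights, and 3 and 4 without those mice. Unadjusted upward counts were 1058, 810 and 1043 for these scalings, 3704 with weights, and 855 and 485 without those mice. Unadjusted downward counts were 746, 837 and 756, and 382 without those mice after scaling. With each mouse left out the ranges were 88 to 1075 and 18 to 69 adjusted (1075 without control 1), and 1724 to 3416 and 193 to 320 unadjusted.

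The list genes passing upward were 1 with no filter, either scaling, scaling with block or no trend, 8 with weights, 0 without CKO 1, 3 and 6 under either scaling, and 1 to 7 with each mouse left out. Downward they were 2 after scaling, 1 after quantile normalization, scaling with block or weights, and 0 to 1 with each mouse left out. Unadjusted upward they were 15 with weights, 5 and 4 without those mice, and 6 to 14 with each mouse left out. Unadjusted downward they were 5 after either scaling and with block, 3 with weights, 2 without those mice after scaling, and 1 to 3 with each mouse left out. Camk2d lost its adjusted call in 16 of 23 alternatives and Micu2 in 17.

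Signs turned where differences were near 0. Slc8a1 was -0.069 after quantile normalization and -0.10 and -0.21 without CKO 1, 3 and 6. Atp2b1 was -0.063 after scaling, with or without block, -0.051 after quantile normalization and -0.038 without those mice after scaling. Atp2b4 was -0.036 after quantile normalization. Camk2b ran from -0.097 to 0.037 with each mouse left out, and turned without control 4. The Camk2d share difference was 5.83 to 8.44 points with each mouse left out (adjusted p 0.0119 to 0.143, exact permutation) and 3.17 points without CKO 1, 3 and 6. Within replicate pairs it was 7.29 points (adjusted p 0.172, exact test flipping the sign of each pair's difference). That test has fewer possible outcomes than the 924 assignments over all mice, which limits how small its p can be. With each mouse left out, Camk2a was -7.51 to -5.16 points, Camk2b -0.672 to 0.456, Camk2g -1.62 to -0.196, Atp2b2 -0.0847 to 0.0300 and Slc8a2 -0.116 to 0.00269. Without CKO 1, 3 and 6, Camk2g was 0.815 and Atp2b2 0.165 points. Compared as log2 odds over all mice, Slc8a2 was 0.593.

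The replicate numbers share no stated litter or batch. Same-numbered mice deviated together in 2 of 6 pairs (correlations -0.0861 to 0.164), so no pairing was used. With the replicate block alone, Slc8a3 had an adjusted p of 0.0108 by limma, and 272 genes passed upward and 40 downward.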
